A study of Mus musculus with 9 samples.

Results

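Ferroptosis is an iron-dependent form of cell death in which polyunsaturated fatty acids in membrane phospholipids are oxidised to lipid peroxides. Its course is set by enzymes that remove or block these peroxides, called guards here, and by enzymes that supply or oxidise the vulnerable lipids, called drivers here. The 9 genes described were taken by symbol from the 29756 entries of the expression table, whatever their values. Gpx4, Aifm2, Dhodh and Gch1 are the 4 guards, and Acsl4, Lpcat3, Sat1, Por and Alox5 are the 5 drivers. The RNA came from HT22, an immortalised mouse hippocampal neuronal line in which oxidative death has been studied widely, so all values are of a dividing line and not of neurons in tissue.

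The labels divide 9 libraries into a control, an experimental and an intervention group of 3 each, all of this 1 line. The series title names hemin (heme with its iron oxidised) and PPP8, a bioactive micelle, but no label gives the cultures, dose or time of either agent. The groups therefore keep the names of the labels. Nothing in the labels says that replicates were separate cultures, so the p-values rest on a spread between libraries that may be only technical. In bulk RNA, fewer cells of a type and less RNA per cell cannot be told apart.

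Values are FPKM, the sequenced fragments of a gene scaled to its length and to the library, and the depth of each library is unknown. FPKM summed to 316912 to 339943 per library, and 11154 to 11267 entries reached 1 FPKM in the experimental, 11308 to 11394 in the intervention and 11646 to 11732 in the control libraries. Of 19 neuronal markers, 2 passed the filter described next (Tubb3 and Camk2a), while Rbfox3, Map2 and Dcx averaged at most 0.147 FPKM in every group. Summed neuronal markers were 11.5 to 12.1 FPKM in the experimental, 7.84 to 10.8 in the intervention and 9.50 to 14.6 in the control libraries. Markers of other cells were summed in the same way. Those of microglia and blood reached 3.05 to 4.64, 3.73 to 6.11 and 12.4 to 13.5 FPKM in that order of groups. The leukocyte gene Ptprc was at 0 in all experimental and intervention libraries, and only Tmem119 and Cd68 passed the filter. The higher control sum came mainly from Tmem119, with means of 0.93, 1.633 and 10.28 FPKM in the same order. Cd68 ran the other way, with means of 1.883, 2.003 and 1.227 FPKM. Those of oligodendrocytes and their precursors reached 16.8 to 16.9, 16.3 to 17.1 and 29.1 to 36.4 FPKM, carried by Pdgfra and Cspg4, with Olig2 and Sox10 at 0 in the experimental libraries. Those of astrocytes reached 29.7 to 31.3, 26.9 to 28.3 and 31.8 to 40.9 FPKM, and those of endothelium summed to at most 0.41 FPKM. The part of these marker differences in the results on guards and drivers was not tested.

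Groups were compared with limma on log2(FPKM + 1) over the 11974 entries that reached 1 FPKM in at least 3 libraries, and calls were made where the p adjusted by Benjamini and Hochberg's method was under 0.05. The scale understates the change of low genes, so ratios of mean FPKM are given as well. In the experimental against the control group 23.5% of tested entries were called higher and 50.5% lower, and the median entry differed by -0.21 (log2). As most entries were lower, the calls of the members and the counts of the pathway lists are also given after median-ratio scaling, which divides each library by the median over entries of its ratio to the geometric mean. That scaling brought the median difference to -0.004 and the calls to 36.1% higher and 36.7% lower. The experimental against control and intervention against control comparisons share the control libraries, and the experimental libraries enter 2 comparisons likewise, so the results are not independent of each other.

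Of the members, 7 passed the filter, 3 guards and 4 drivers. Gch1 and Alox5 did not, and are described by their values.

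The stretches of sequence just upstream of 3 members are shown first, because Gpx4 and Lpcat3 were called lower and Sat1 higher in the experimental group. They come from RefSeq on GRCm38.p6, where 8 of the 9 members had entries, with 11 windows of 300 bases (250 before and 50 after a start site) in all. Each is printed 5′ to 3′ on the gene's strand and ends where an annotated exon begins. Gpx4 has 4 windows, of which 2 are printed: the one that ends at the annotated start of the gene, and one of the others, which lies inside the annotated locus and was chosen because it holds both motifs. Capitals mark a CCAAT box (CCAAT) or a GC box (GGGCGG) on either strand, so that ATTGG and CCGCCC are matches on the opposite strand.
Gpx4 at the annotated start, chr10:80046916-80047165, plus strand: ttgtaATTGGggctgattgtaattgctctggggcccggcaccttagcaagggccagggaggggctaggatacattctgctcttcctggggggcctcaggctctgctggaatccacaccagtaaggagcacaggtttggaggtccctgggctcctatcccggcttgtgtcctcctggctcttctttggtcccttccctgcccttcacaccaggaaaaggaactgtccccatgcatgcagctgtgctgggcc
Gpx4 inside the locus, chr10:80053315-80053487, plus strand: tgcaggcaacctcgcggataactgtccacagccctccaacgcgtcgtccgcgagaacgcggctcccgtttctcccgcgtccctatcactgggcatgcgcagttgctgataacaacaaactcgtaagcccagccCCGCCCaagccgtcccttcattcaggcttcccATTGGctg
Lpcat3, chr6:124662854-124663026, plus strand: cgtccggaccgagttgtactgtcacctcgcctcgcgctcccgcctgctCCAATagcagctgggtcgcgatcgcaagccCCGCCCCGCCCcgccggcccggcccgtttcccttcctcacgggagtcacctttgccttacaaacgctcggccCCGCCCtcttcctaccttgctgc
Sat1, chrX:155216450-155216699, minus strand: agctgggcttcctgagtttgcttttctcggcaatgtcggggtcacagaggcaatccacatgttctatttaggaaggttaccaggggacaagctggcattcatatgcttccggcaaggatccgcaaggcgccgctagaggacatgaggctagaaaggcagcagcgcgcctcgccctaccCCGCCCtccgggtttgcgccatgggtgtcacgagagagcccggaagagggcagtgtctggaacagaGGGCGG

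Over its whole 300 bases the Lpcat3 window held 4 CCAAT boxes and 6 GC boxes, 2 of which overlap by 1 base, while the 4 Gpx4 windows held 1 and 0 (at the annotated start), 3 and 2 (the other one printed), 3 and 2, and 0 and 1. The 2 Gpx4 windows with 3 and 2 overlap in the genome and hold the same boxes. The Sat1 window held 2 GC boxes and no CCAAT box. Of 32851 RefSeq mouse promoter windows of that length, 37.4% held a CCAAT box and 35.7% a GC box. The core of the antioxidant response element bound by NRF2, TGACNNNGC, was found on either strand in 12.4% of all windows and in 0 of the 11 windows of the members. The TATA box TATAAA was found in 13.6% of all windows and, among the members, in that of Gch1, once. These are matches of letters and say nothing of binding.

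**Figure D1:**
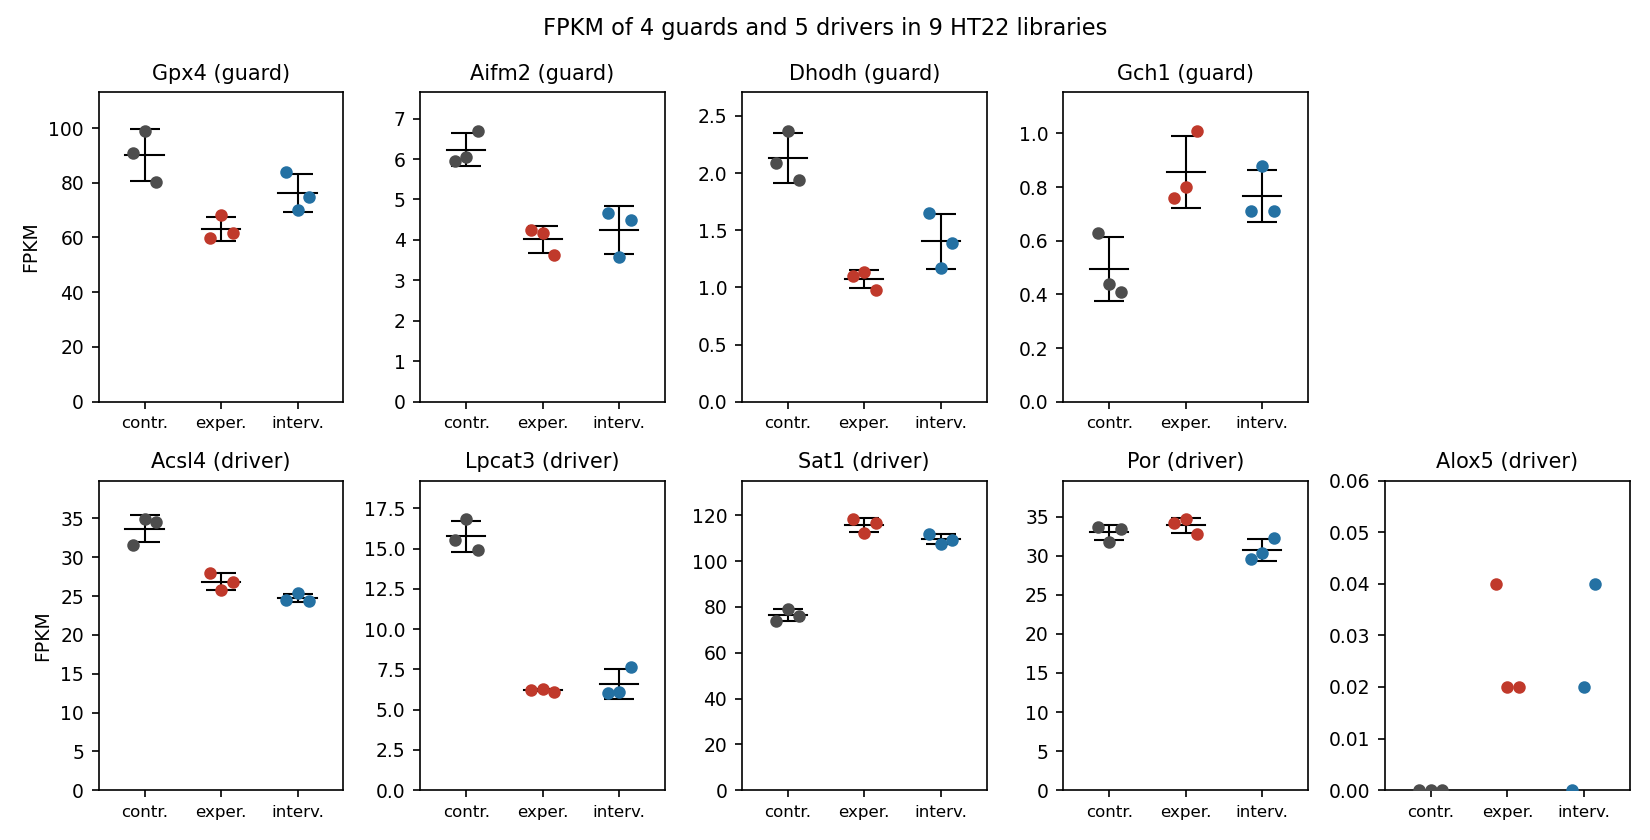
FPKM of the 4 guards (upper row) and 5 drivers (lower row) in each of 9 HT22 libraries; points are libraries, bars the group mean with SD (n = 3), omitted for Alox5, and each panel has its own axis from 0. Mean Gpx4, Aifm2, Dhodh, Acsl4 and Lpcat3 are highest in the control group, mean Sat1 and Gch1 lowest there, and Por spans only 29.5 to 34.7 FPKM.

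The guards Gpx4, Aifm2 and Dhodh were all lower in the experimental than in the control group, by 1.43 to 1.99 times in mean FPKM, and Gch1 was higher by 1.74 times at levels below about 1 FPKM. Together with the drivers, 6 of the 7 tested members were called in that comparison, 5 lower and 1 higher. With 50.5% of all entries called lower, lower calls among so few genes are not read as a property of these genes.

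Gpx4 (chromosome 10, 80047166 to 80056439, plus strand, mm10) encodes the selenoenzyme that reduces phospholipid hydroperoxides inside membranes with glutathione. It was the most abundant guard, above 96.5% of tested entries in the control group. It stood at 90.9, 99.0 and 80.2 FPKM in the control libraries, 59.8, 68.1 and 61.7 in the experimental and 83.9, 70.0 and 74.6 in the intervention libraries. All experimental libraries lay below all others, and the highest intervention library lay above the lowest control library. The difference of experimental from control was -0.50 ± 0.089 (log2 ± SE, 95% interval -0.70 to -0.30, limma adjusted p = 0.0005), or -0.26 after median-ratio scaling (adjusted p = 0.0149). The annotation holds a transcribed pseudogene of it, Gpx4-ps2, and how reads shared with that copy were counted is not given in the sources used here.

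Gpx4 in the intervention group lay between the others. Against the experimental group it was 0.26 ± 0.089 higher (interval 0.07 to 0.46) at an unadjusted p of 0.0144 and a limma adjusted p of 0.0621, which misses the threshold. The adjusted p ran from 0.0431 to 0.210 when single libraries were left out, and it was under 0.05 without control replicate 2 (0.0488), control replicate 3 (0.0451), experimental replicate 2 (0.0481) or intervention replicate 2 (0.0430). Against the control group Gpx4 was lower in the intervention group at -0.24 (adjusted p = 0.0383), a call that ended after median-ratio scaling (-0.09, adjusted p = 0.339) and, among single libraries, without control replicate 1 or 2, intervention replicate 2 or 3, or experimental replicate 3 (adjusted p = 0.0511 to 0.134).

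Aifm2 (chromosome 10, 61715263 to 61739260, plus strand) encodes FSP1, which reduces coenzyme Q at membranes so that it can trap lipid radicals. Its FPKM was 5.95, 6.04 and 6.70 in control, 4.25, 4.16 and 3.63 in experimental and 4.67, 3.57 and 4.48 in intervention libraries. The control libraries stood apart from the other 6, which overlapped among themselves. It fell by 0.53 ± 0.091 on the log2 scale from control to experimental (adjusted p = 0.000387), a ratio of 1.55. The difference was smaller after median-ratio scaling (-0.33, adjusted p = 0.00734) and after quantile normalization (-0.27, adjusted p = 0.0182). The intervention group did not differ detectably from the experimental group (0.06, interval -0.14 to 0.26, adjusted p = 0.659). The annotated exons of Aifm2 overlap those of H2afy2 on the opposite strand over 233 bases, 5.7% of its exon length, and the use of strand in counting is not given.

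Dhodh (chromosome 8, 109591343 to 109608673, minus strand) makes orotate for pyrimidine synthesis at the inner mitochondrial membrane and passes the electrons to coenzyme Q there. It was a low transcript, at 2.09, 2.37 and 1.94 FPKM in control, 1.10, 1.13 and 0.98 in experimental and 1.65, 1.17 and 1.39 in intervention libraries. The 3 groups did not overlap, with intervention in the middle. Its mean was 1.99 times lower in the experimental than in the control group (-0.60 ± 0.094, adjusted p = 0.00021), the largest ratio among the 3 tested guards, and the difference was -0.45 after median-ratio scaling (adjusted p = 0.00119) and -0.32 after quantile normalization (adjusted p = 0.00977). From experimental to intervention the difference was 0.21 ± 0.094 (interval 0.002 to 0.42), with an unadjusted p of 0.0479 and an adjusted p of 0.128.

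Gch1 (chromosome 14, 47153895 to 47189413, minus strand) catalyses the first step of tetrahydrobiopterin synthesis, whose product traps radicals. It was the guard that ran the other way. Control libraries held 0.63, 0.44 and 0.41 FPKM, experimental libraries 0.76, 0.80 and 1.01 and intervention libraries 0.71, 0.88 and 0.71. Every experimental and intervention library lay above every control library. Only 1 library reached 1 FPKM, so Gch1 was outside the tested set. In the fit with no filter on low values its difference of experimental from control was 0.31 (limma adjusted p = 0.0307), that of intervention from control 0.24 (adjusted p = 0.097) and that of intervention from experimental -0.07 (adjusted p = 0.75).

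The drivers did not move as a block. From control to experimental Lpcat3 fell the most of all members, Acsl4 fell by a smaller amount, Sat1 rose, Por was not called and Alox5 was barely detected. Thus 1 of the 4 tested drivers was called higher and 2 lower, with the background of 23.5% and 50.5% given above.

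Acsl4 (chromosome X, 142317993 to 142390535, minus strand) couples arachidonic and adrenic acid to coenzyme A, the step that commits them to membrane phospholipids. Control libraries held 31.6, 34.9 and 34.6 FPKM, experimental libraries 27.9, 25.8 and 26.8 and intervention libraries 24.5, 25.4 and 24.3. The 3 groups were separate, with the intervention group lowest. The difference of experimental from control was -0.32 ± 0.053 (adjusted p = 0.000312), a ratio of 1.26, and it lost its call once libraries were median-ratio scaled (-0.08, adjusted p = 0.257). Intervention against control was -0.43 (adjusted p = 5.42e-05) and remained called after that scaling (-0.29, adjusted p = 0.00181).

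Lpcat3 (chromosome 6, 124663027 to 124704418, plus strand) is the acyltransferase that inserts those activated fatty acids into lysophospholipids. It stood at 15.5, 16.8 and 14.9 FPKM in control, 6.23, 6.25 and 6.12 in experimental and 6.02, 6.09 and 7.65 in intervention libraries. Control libraries lay above all others, by more than the whole range within any group. Experimental cells had 2.54 times less (-1.22 ± 0.082, interval -1.40 to -1.03, adjusted p = 6.45e-07), and 457 of the 11974 tested entries had a more negative difference. After median-ratio scaling it was -0.99 (adjusted p = 2.92e-06). The mean rank moved from above 72.7% of tested entries in control to above 49.1% in experimental cells. The intervention group was low as well, with a difference from experimental of 0.07 (interval -0.11 to 0.25, adjusted p = 0.563) and from control of -1.15 (adjusted p = 1.62e-06). Lpcat3 exons overlap Emg1 on the opposite strand over 334 bases, 10.2% of their length. Emg1 averaged 11.5 FPKM over the 9 libraries.

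Sat1 (chromosome X, 155213132 to 155216449, minus strand) acetylates spermidine and spermine for export or breakdown and is a p53 target linked to lipoxygenase-dependent peroxidation. It was the most abundant driver, at 74.0, 79.1 and 76.0 FPKM in control, 118, 112 and 116 in experimental and 112, 107 and 109 in intervention libraries. All control libraries lay below all others. It rose by 0.59 ± 0.044 from control to experimental (interval 0.50 to 0.69, adjusted p = 1.21e-06), a ratio of 1.52, and 1105 tested entries had a larger positive difference. After median-ratio scaling it was 0.84 (adjusted p = 2.42e-07). Intervention libraries were just below the experimental ones, the nearest pair being 111.85 and 112.33 FPKM. That difference, -0.08 ± 0.044, was not called on the deposited scale (adjusted p = 0.222) and was called after median-ratio scaling (-0.18, adjusted p = 0.0437).

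Por (chromosome 5, 135670033 to 135735326, plus strand) passes electrons from NADPH to cytochrome P450 enzymes and can feed lipid peroxidation. Its highest library exceeded its lowest by a smaller factor than in any other member, with 33.6, 31.8 and 33.5 FPKM in control, 34.2, 34.7 and 32.8 in experimental and 29.5, 30.3 and 32.3 in intervention libraries. Experimental and control libraries overlapped, with a difference of 0.04 (interval -0.07 to 0.15, adjusted p = 0.495). Against the shifted median of all entries Por was relatively higher, and after median-ratio scaling it was called at 0.28 (adjusted p = 0.000869). Scaled to TPM the same difference was -0.02 (interval -0.15 to 0.10, adjusted p = 0.701). The call thus depends on the scaling, and no sign is read where Por was not called. All intervention libraries were below all experimental ones (-0.14 ± 0.050, unadjusted p = 0.0193, adjusted p = 0.0733), and this was called after median-ratio scaling (-0.23, adjusted p = 0.0283).

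Alox5 (chromosome 6, 116410077 to 116461178, minus strand), the lipoxygenase that starts leukotriene synthesis from arachidonic acid, was near the floor of the table. It was listed at 0 in all 3 control libraries, at 0.04, 0.02 and 0.02 FPKM in the experimental and at 0, 0.02 and 0.04 in the intervention libraries. No fold is given against a group listed at 0. Alox12, Alox12b, Alox12e and Alox15 averaged at most 0.033 FPKM in any group, and Aloxe3 0.27 to 0.353. Alox5ap, which presents arachidonic acid to Alox5, averaged 2.01, 1.78 and 2.19 FPKM in the experimental, intervention and control groups.

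**Figure D2:**
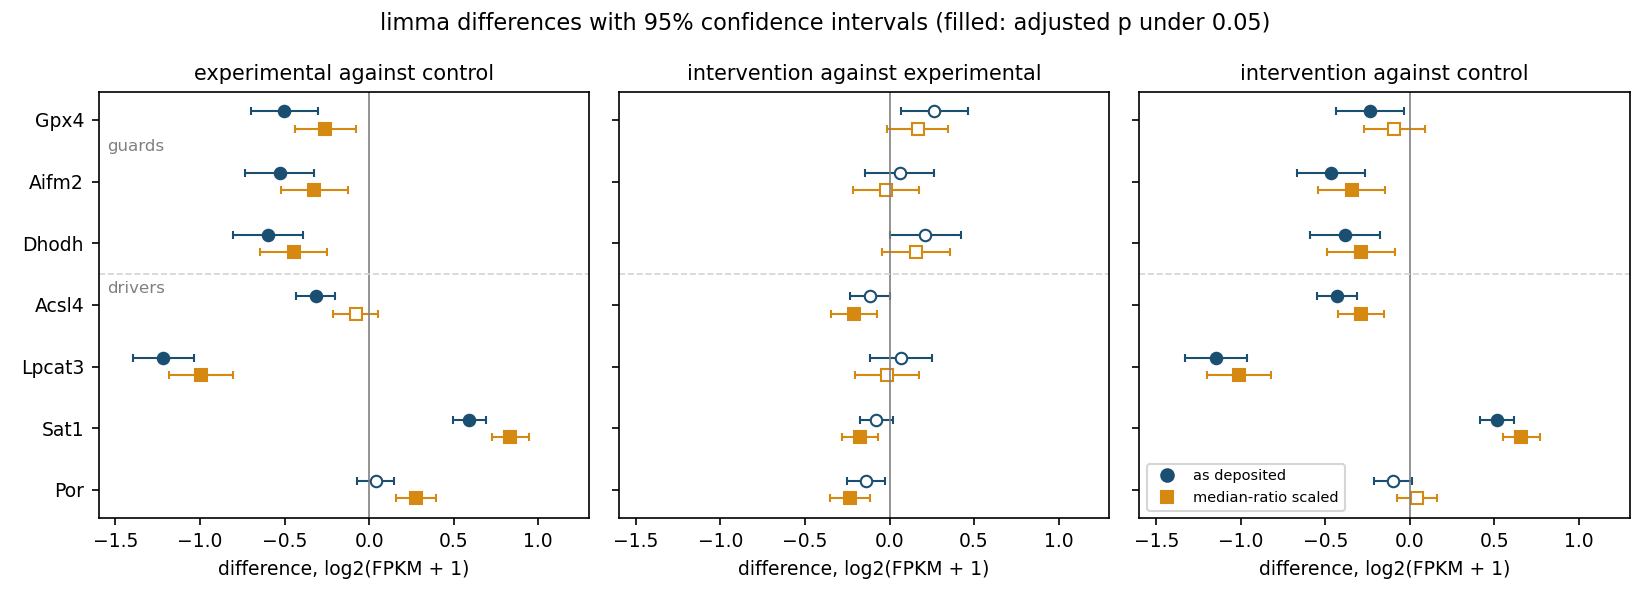
limma differences of the 7 tested members in log2(FPKM + 1) with 95% confidence intervals for the 3 comparisons; circles use the deposited FPKM and squares median-ratio scaled FPKM, filled where the adjusted p is under 0.05, and the dashed line divides guards (above) from drivers. In the left panel Lpcat3 lies at -1.22 and Sat1 at 0.59 on the deposited scale, while all 7 circles in the middle panel are open.

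Between the intervention and experimental groups none of the 7 tested members was called (0 by limma, 3 at an unadjusted p under 0.05, namely Gpx4, Dhodh and Por). In that comparison 15.9% of tested entries were called higher and 3.6% lower. After median-ratio scaling 5.39% were called higher and 6.61% lower, and the calls among members were 3, all drivers and all lower in the intervention group: Acsl4 (adjusted p = 0.0494), Sat1 and Por. Gpx4, at 0.17 with an adjusted p of 0.193, was not among them, and the 3 calls did not hold in every alternative. Calls in this comparison depend on single libraries at large. Of all entries 2337 were called with 9 libraries, but leaving out experimental replicate 1 left 1 call, and leaving out experimental replicate 3 left 4. Leaving out intervention replicate 1 left 6 calls, and intervention replicate 3 left 939.

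Intervention against control repeated the directions seen for experimental against control in all 6 members called, 5 lower and 1 higher, beside 24.1% of tested entries called higher and 41.1% lower. The difference was -0.47 for Aifm2 (adjusted p = 0.00112), -0.39 for Dhodh (adjusted p = 0.00451) and 0.52 for Sat1 (adjusted p = 5.29e-06). Por was not called (-0.10, adjusted p = 0.103). After median-ratio scaling, with 33.4% and 31.6% of entries called higher and lower, 5 members remained called and Gpx4 did not. The shared control libraries enter both comparisons.

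A ratio of 2 genes within a library does not move with a linear scaling, so each member was also set against Gpx4. The ratios are described without a test. Sat1 stood at 0.853 ± 0.081 of Gpx4 in control, 1.84 ± 0.169 in experimental and 1.44 ± 0.102 in intervention cells (SD, n = 3 each). None of these 3 groups overlapped, and the experimental ratio was 2.16 times the control ratio. Sat1 thus exceeded Gpx4 in FPKM in every experimental and intervention library and in no control library.

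All these ratios share Gpx4 as the denominator. Por ran from 0.369 ± 0.048 of Gpx4 in control to 0.538 ± 0.031 in experimental cells without overlap, and back to 0.406 ± 0.047 in intervention cells, which overlapped the controls. Mean Por FPKM was only 1.03 times higher in experimental than in control cells, while mean Gpx4 was 1.43 times lower, so this ratio mainly reads Gpx4. Acsl4 was 0.377 ± 0.047, 0.427 ± 0.044 and 0.327 ± 0.035 in control, experimental and intervention cells, and only the last 2 were separate. Lpcat3 went the other way, with an experimental ratio 0.56 times and an intervention ratio 0.491 times that of control, both without overlap. Among the guards, Dhodh was lower relative to Gpx4 (0.714 and 0.772 times the control ratio, no overlap), Aifm2 overlapped between experimental and control cells, and Gch1 was 2.50 and 1.86 times its control ratio without overlap. Quantile normalization, which is not linear, moved the log2 Dhodh ratio of experimental over control from -0.49 to 0.01 and that of Aifm2 from -0.13 to 0.22, so the ratios of these low guards depend on the scaling.

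**Figure D3:**
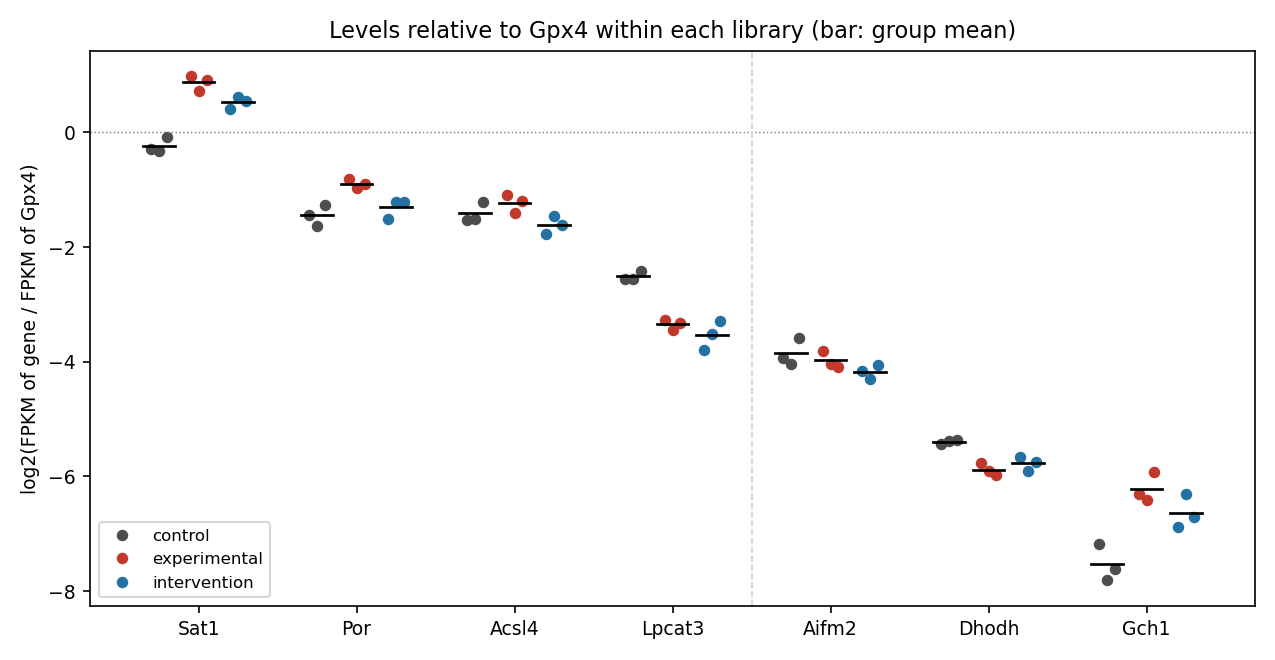
log2 of each gene's FPKM over that of Gpx4 in the same library, for 4 drivers (left of the dashed line) and 3 guards; points are the 9 libraries and bars group means, and the dotted line marks a level equal to Gpx4. Sat1 lies below the dotted line in all control libraries and above it in all others.

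The wider pathways around the members were read from 10 lists with 114 genes, of which 93 were tested. From control to experimental 22 of the 93 were called higher and 49 lower, and their median difference was -0.26 against -0.21 for all entries. After median-ratio scaling the counts were 35 and 37. These counts are close to those of the table as a whole, and the lists are described one by one below.

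Gpx4 contains selenocysteine, which needs its own translation machinery. Of 10 tested genes of selenoprotein synthesis 2 were higher and 5 lower (median -0.32), and 3 and 3 after median-ratio scaling (median -0.12). In all tested entries the shares higher and lower were 23.5% and 50.5%, and 36.1% and 36.7% after that scaling. Eefsec, the elongation factor that delivers selenocysteine to the ribosome, fell from 11.7 ± 0.450 to 5.40 ± 0.335 FPKM (-0.99, adjusted p = 8.92e-07). Sephs2, which makes the selenium donor, was 33.6 ± 1.58 in control, 22.6 ± 2.52 in experimental and 27.7 ± 2.51 in intervention cells. Lrp8, a receptor for the selenium carrier selenoprotein P, rose from 11.3 ± 0.754 to 20.5 ± 0.765 FPKM (0.81, adjusted p = 1.18e-06).

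Coenzyme Q is the substrate that Aifm2 and Dhodh reduce. Of its 14 tested synthesis genes 12 were lower and 1 higher in the experimental group, with a median of -0.51, and 10 were lower and 2 higher after median-ratio scaling. Shares over all tested entries were 50.5% lower and 23.5% higher, and 36.7% and 36.1% after that scaling. Coq9, which binds lipid intermediates of the pathway, fell from 9.24 ± 1.13 to 3.44 ± 0.447 FPKM (-1.21, adjusted p = 1.72e-06), and Coq2, which attaches the isoprenoid tail, from 12.3 ± 1.22 to 5.97 ± 0.248 (-0.93, adjusted p = 1.81e-06). In intervention against experimental cells 6 of the 14 were higher and 0 lower, beside 15.9% and 3.6% of all tested entries. After scaling 4 were higher and 0 lower, beside 5.39% and 6.61%. Coq5, a methyltransferase of the pathway, was at 13.7 ± 0.532 against 10.4 ± 1.20 FPKM there (0.37, adjusted p = 0.0161).

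Other genes of tetrahydrobiopterin went in both directions, while Gch1 itself was not tested. Of 7 tested, 4 were lower and 1 higher in the experimental group (median -0.41), and 4 and 2 after median-ratio scaling. For all tested entries the shares were 50.5% lower and 23.5% higher, and 36.7% and 36.1% after that scaling. These counts are therefore not read as a property of the pathway. Pts, which acts just after Gch1, went from 1.24 ± 0.076 to 0.59 ± 0.044 FPKM (limma adjusted p = 0.000217) and was 0.817 ± 0.025 in intervention cells. It passed the filter only through the control group, where it was highest, so its lower call is no support for a direction. Gch1, also a low transcript, was left out by the same filter. The recycling enzyme Qdpr went from 38.1 ± 1.42 to 28.4 ± 0.758 (-0.41, adjusted p = 8.65e-05, and -0.18 after median-ratio scaling, adjusted p = 0.0118).

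Beside Dhodh, 4 of 7 tested genes of pyrimidine synthesis were higher and 2 lower under both scalings, with a median of 0.27 on the deposited scale. Among all tested entries 23.5% were higher and 50.5% lower, and 36.1% and 36.7% after median-ratio scaling. Uck2, the salvage kinase for uridine, rose from 12.2 ± 1.24 to 29.2 ± 1.18 FPKM (1.20, adjusted p = 3.43e-07). Cmpk1 fell from 21.2 ± 1.39 to 10.8 ± 0.146 (-0.91, adjusted p = 4.18e-07). Ctps2, which makes CTP, was 101 ± 4.64 in control, 53.6 ± 3.05 in experimental and 69.3 ± 5.14 in intervention cells.

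A list of 9 other tested genes that bear on lipid peroxides ("other lipid peroxide guards" in the plot of pathway lists) had 4 higher and 3 lower, and 6 and 2 after median-ratio scaling (median 0.20 and 0.43). Not all of them protect, so the direction of a call is not read as a gain or loss of protection. The shares of all tested entries were 23.5% higher and 50.5% lower, and 36.1% and 36.7% after that scaling. The 3 of the list called lower were Dhcr7, Sc5d, which makes the radical-trapping sterol 7-dehydrocholesterol, and Far1, which serves ether lipid synthesis. Prdx6, a peroxiredoxin that reduces phospholipid hydroperoxides, rose 3.93 times, from 19.9 ± 1.20 to 77.9 ± 3.22 FPKM (1.92, adjusted p = 2.42e-08), and was 64.9 ± 4.95 in intervention cells. In mean FPKM Prdx6 was thus below Gpx4 in control cells, above it in experimental cells and below it in intervention cells, with Gpx4 at 90.1, 63.2 and 76.2 in that order. Dhcr7, which consumes that radical-trapping sterol, fell 4.13 times, from 12.7 ± 0.427 to 3.07 ± 0.049 (-1.75, adjusted p = 5.38e-08). Mgst1, a microsomal glutathione transferase, was 32.6 ± 5.13 FPKM in intervention and 22.6 ± 2.24 in experimental cells (0.50, adjusted p = 0.0191).

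Monounsaturated lipids compete with the substrates of Acsl4 and Lpcat3. Of the genes listed under their remodelling, 6 of 6 tested were lower under both scalings (median -0.998). Of all tested entries 50.5% were lower, and 36.7% after median-ratio scaling. Scd2, a desaturase, fell from 608 ± 11.8 to 267 ± 5.82 FPKM (-1.18, adjusted p = 7.77e-08) and Scd1 from 86.0 ± 3.06 to 42.7 ± 1.27 (-0.99, adjusted p = 8.17e-08). Lpcat1, another acyltransferase of lysophospholipids, was 6.96 ± 0.546, 5.10 ± 0.210 and 6.32 ± 0.042 FPKM in control, experimental and intervention cells.

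Of 13 tested genes of polyunsaturated and ether lipid supply 7 were lower and 0 higher, but 4 and 4 after median-ratio scaling. All tested entries had 50.5% lower and 23.5% higher, and 36.7% and 36.1% after that scaling. The share called lower was thus near that of all entries. Fads2 fell from 174 ± 6.50 to 96.7 ± 4.31 FPKM (-0.84, adjusted p = 3.22e-07) and Fads1 from 107 ± 2.53 to 72.4 ± 1.08 (-0.55, adjusted p = 1.56e-06, and -0.31 after median-ratio scaling, adjusted p = 0.000126). Both desaturate polyunsaturated fatty acids. Gnpat, which starts ether lipid synthesis, fell from 20.7 ± 0.547 to 9.74 ± 0.599 (-1.02, adjusted p = 2.11e-06) and was 13.9 ± 1.86 in intervention cells.

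Por has partners among other electron donors. Of 7 tested genes of the lipoxygenase and electron donor list 2 were higher and 3 lower, and 2 and 2 after median-ratio scaling. Over all tested entries 23.5% were higher and 50.5% lower, and 36.1% and 36.7% after that scaling. Cyb5r1, a reductase that can promote lipid peroxidation beside Por, rose 2.29 times, from 18.0 ± 0.167 to 41.2 ± 0.761 FPKM (1.15, adjusted p = 3.76e-08). Cyb5a, cytochrome b5, rose from 5.65 ± 0.676 to 11.4 ± 0.971 (0.90, adjusted p = 6.15e-06) and stood at 14.5 ± 0.748 in intervention cells. Lta4h, which makes leukotriene B4, fell from 22.5 ± 1.25 to 9.72 ± 0.346 (-1.13, adjusted p = 2.00e-07).

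Beside Sat1, 4 of 10 tested polyamine genes were higher and 4 lower, and 6 and 2 after median-ratio scaling. Next to these counts, 23.5% of all tested entries were higher and 50.5% lower, and 36.1% and 36.7% after that scaling. Odc1, the rate-limiting enzyme of polyamine synthesis, rose from 22.8 ± 0.426 to 48.4 ± 1.45 FPKM (1.05, adjusted p = 1.25e-07). Amd1, which provides the aminopropyl donor, rose from 42.9 ± 2.59 to 86.4 ± 1.59 (0.99, adjusted p = 2.33e-07). Azin1, which protects Odc1 from breakdown, was 29.3 ± 1.99 in control, 46.2 ± 4.36 in experimental and 38.3 ± 3.70 in intervention cells.

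Of 10 tested markers and effectors of ferroptotic death, 4 were higher and 3 lower in experimental cells (median -0.02), and 6 and 2 after median-ratio scaling (median 0.21). The whole tested set had 23.5% higher and 50.5% lower, and 36.1% and 36.7% after that scaling. This list mixes genes of different roles, so the direction of a call is not read as more or less death. In intervention against experimental cells 4 were lower and 0 higher under both scalings. Of all tested entries 3.6% were lower and 15.9% higher there, and 6.61% and 5.39% after median-ratio scaling. Each of the 4 calls was lost in at least 1 fit without a library (largest limma adjusted p 0.064 to 0.130). Ptgs2, Chac1 and Cdkn1a moved towards their control levels and Tfrc away from its own. Ptgs2, a cyclooxygenase used as a marker of ferroptosis, was 5.71 ± 0.437 FPKM in control, 249 ± 47.6 in experimental and 107 ± 31.9 in intervention cells. Cdkn1a, the p53 target that encodes p21, rose from 34.2 ± 3.42 to 81.3 ± 3.87 (1.23, adjusted p = 4.03e-07). Tfrc, the transferrin receptor, fell from 57.5 ± 1.72 to 20.4 ± 3.50 (-1.46, adjusted p = 2.30e-06) and was 13.8 ± 1.96 in intervention cells.

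Of the 30 pathway genes picked by the naming rule, 29 were called in experimental against control, and 0 of these calls were lost when any 1 library was left out. All 29 were also called after median-ratio scaling. The rule picked most of these genes for a small adjusted p in this same comparison, so these counts were largely set by the choice. They are not read as a sign of robustness. For Lpcat1, experimental against control, the call was lost after quantile normalization (-0.13, adjusted p = 0.0839). In intervention against experimental cells 20 were called, and each of these 20 calls was lost in at least 1 fit without a library. After median-ratio scaling 9 of the 20 were called.

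**Figure D4:**
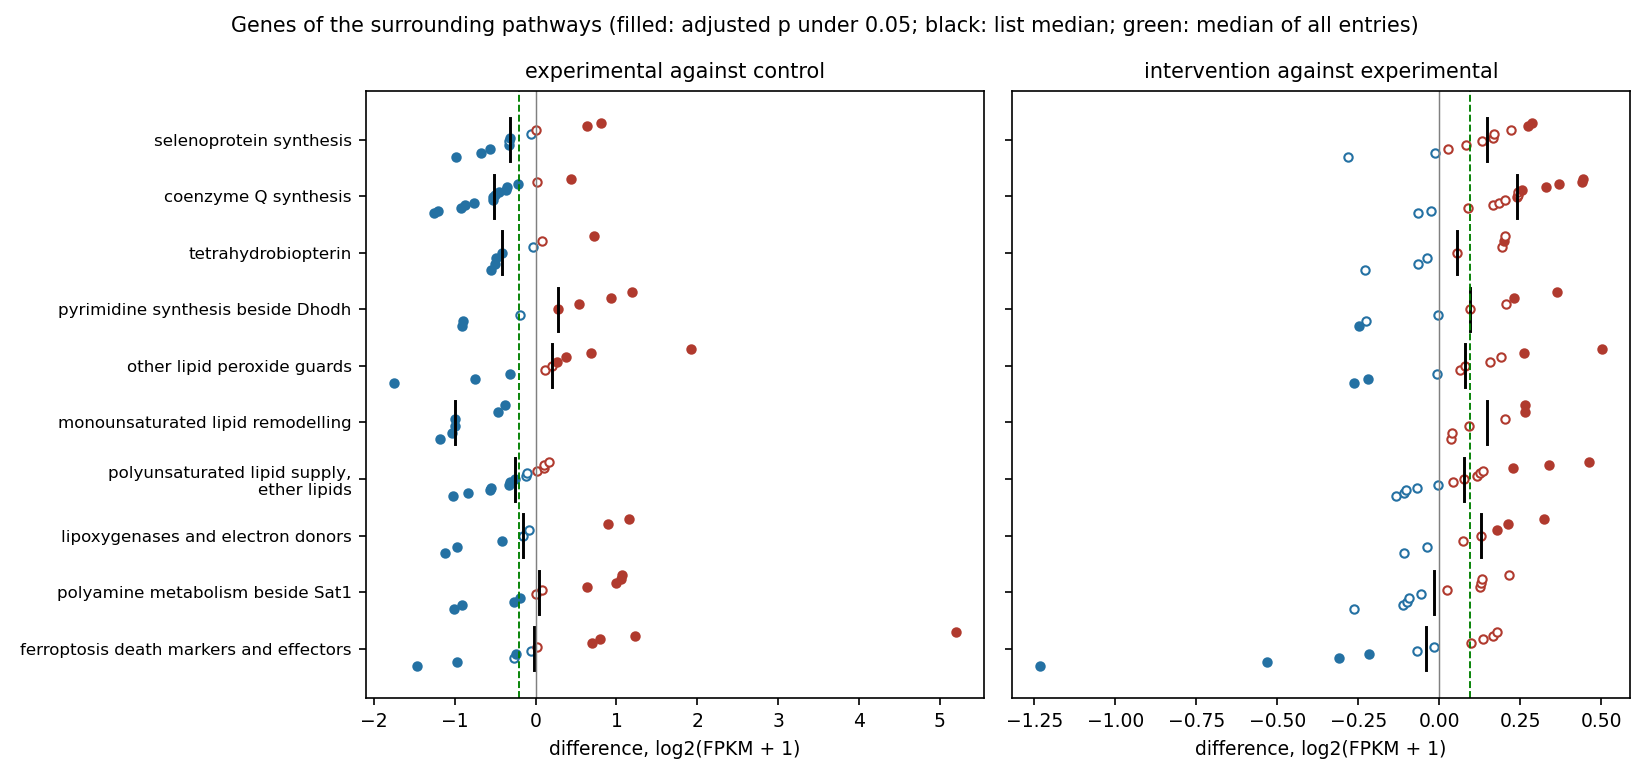
Differences in log2(FPKM + 1) of the tested genes of 10 pathway lists, for experimental against control (left) and intervention against experimental (right); each point is a gene, red above and blue below 0 and filled where the adjusted p is under 0.05, black bars are list medians and the green dashed line is the median of all tested entries. Monounsaturated lipid and coenzyme Q genes lie mostly left of the dashed line in the left panel, and Ptgs2 is the point beyond 5.

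The entries whose pattern was most like that of each tested member were found by Pearson's r of log2(FPKM + 1) over the 9 libraries, which fall into 3 groups, so that r mainly reads the group means. Gpx4 was closest to Dnajc9 (r = 0.994) and Snrnp25 (0.990), and Dhodh to Cdca3 (0.997) and Cope (0.994). Aifm2 was closest to Cradd (0.987) and Dand5 (0.986). Among drivers, Lpcat3 was closest to Ank (0.995) and Tjap1 (0.995), Sat1 to Nasp (0.997) and Snhg12 (0.996), and Acsl4 to Hnrnpd (0.989) and mt-Tn (0.988). Patterns like those of Lpcat3 and Dhodh were common, with 1274 and 1133 tested entries at r over 0.95. Por had a rare pattern, with 1 entry over 0.95, Stom (0.982).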

How the data were processed

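mRNA of HT22 cells was measured in 9 libraries. RNA was purified on RNeasy columns and made into SMARTer mRNA-Seq libraries, per the labels' protocols. The series' own design text names an Illumina NovaSeq as sequencer. FPKM values were deposited by the authors in 1 table (fragments per length and library size), and the submitters' processing notes name mm10. No aligner, counter, annotation or strand setting is given in the sources used here. Low values did not fall on whole-read steps: of 8039 values above 0 in genes under 200 nt, 16.1% were below 1 read at an assumed 200 M reads per library. Whole reads were therefore not recovered, no count test was run, and precision rests on the spread between replicates.

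FPKM + 1 was taken to log2 and fitted with limma 3.58.1 in R 4.3.3 (all 9 libraries, mean-variance trend, no covariate, 2-sided). For 61 entries with a repeated symbol, the symbol stayed with the entry of highest mean. The scripts were tested on simulated data. Loci and overlaps are from GENCODE M21 on mm10, promoters from RefSeq on GRCm38.p6. The members and lists were chosen with earlier results of these data known. Named are all 9 members, per list the 2 tested genes with the smallest adjusted p in experimental against control and 1 more in intervention against experimental, and the 2 entries most like each tested member, leaving out predicted genes; some genes so picked are not reported here. Alternatives changed the pseudocount (0.1), filter (none, or a mean of at least 5 FPKM), scaling, variance prior, libraries in the fit, replicate block and each library in turn.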

Additional observations from a re-analysis of the deposited data

How the results depend on the processing

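Among the members no difference changed sign while called. In experimental against control 6 members were called without any 1 library in turn, and in intervention against control 5 to 6. In intervention against experimental the count was 0 on the deposited scale, 3 after median-ratio scaling, 1 with a mean of at least 5 FPKM (Gpx4, adjusted p = 0.0495), 1 after quantile normalization (Por, adjusted p = 0.0473) and 0 to 1 when single libraries were left out; the cause was not tested. The calls of Gpx4, Acsl4, Sat1 and Por that scaling or single libraries moved are given with their values above. Further, the call of Gpx4 in intervention against control ended with no filter (adjusted p = 0.104), without the trend (0.0505) and with only the groups compared (0.0549), that of Dhodh there ended after quantile normalization (0.119), and Por was called there after scaling to TPM (0.0151).

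Calls over all entries in intervention against experimental fell from 2337 to 358 with no filter, 1437 with median-ratio scaling, 1038 with quantile normalization, 1268 with the replicate block and 342 with both median-ratio scaling and the block. The replicate numbers showed no sign of pairing in expression: deviations of same-numbered libraries correlated at -0.18 to 0.11, and those of differently numbered libraries at -0.14 to 0.15. With 3 libraries per group this cannot decide how the cultures were paired, which the labels do not state. With the replicate block 6, 0 and 6 members were called in the 3 comparisons, as without it, and with median-ratio scaling and the replicate block 6, 0 and 5, where the lower calls of Acsl4 (adjusted p = 0.0943), Sat1 (0.0948) and Por (0.0616) in intervention against experimental, made after that scaling alone, were lost. Ratios to Gpx4 do not move with linear scaling. After quantile normalization those of Sat1, Por and Acsl4 kept their direction in every comparison, and the log2 Lpcat3 ratio of experimental over control went from -0.84 to -0.58. Depth is unknown, so differences of Gch1, Alox5 and other genes below 1 FPKM cannot be given a counting error.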

Other observations

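Some genes of the same pathways stood outside the naming rule and were chosen after their values were seen. Scly, which recycles selenium from selenocysteine, averaged 0.223 ± 0.076 FPKM in control, 1.15 ± 0.180 in experimental and 0.65 ± 0.180 in intervention cells (SD, n = 3 each) and was not tested. Sars, the synthetase that charges the selenocysteine tRNA with serine, rose from 76.9 ± 2.50 to 120 ± 3.49 FPKM in experimental cells (limma, 0.63, adjusted p = 1.21e-06). Sat2, a relative of Sat1, went the other way from it, from 2.54 ± 0.341 to 0.753 ± 0.206 FPKM (-1.01, adjusted p = 2.54e-05). Sat2 averaged 0.643 ± 0.166 FPKM in intervention cells and so passed the filter only through the control group, where it was highest. Acsl3, which activates monounsaturated fatty acids, fell from 42.7 ± 1.42 to 20.8 ± 1.01 (-1.002, adjusted p = 2.11e-07). Nfe2l2, which encodes NRF2, rose from 25.6 ± 0.705 to 41.8 ± 1.02 (0.69, adjusted p = 1.02e-06) and was 35.8 ± 1.84 in intervention cells.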
